A study of Mus musculus with 50 samples.

Results

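Aminoacyl-tRNA synthetases join each amino acid to its transfer RNA, the step that supplies the ribosome with charged tRNA. The nuclear genome of the mouse holds separate gene sets for the cytosol and for the mitochondrial matrix, and Gars and Kars each give both forms from 1 gene. The members were chosen by symbol from the gene count table: 20 genes for cytosolic enzymes and 16 for mitochondrial enzymes, together 36 of the 39056 genes counted. All 36 passed the filter on low counts, which left 16460 genes for testing. Eprs carries the glutamyl and prolyl activities in 1 protein, and the phenylalanyl enzyme of the cytosol has 2 subunits, encoded by Farsa and Farsb.

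The cells were oligodendrocyte progenitor cells of C57BL/6 mice, purified by immunopanning from the cortices of pups 6 days old, passaged 2 times in proliferation medium and left to differentiate for 12 to 14 hours before treatment. Wild-type cells and cells of Nrf2 -/- mice, which lack the transcription factor encoded by Nfe2l2, were left untreated or given interferon-gamma (IFN-gamma, 200 U/ml) for 1, 8, 24 or 48 h, or thapsigargin (given in the labels as 200 uM) for 1 or 8 h. Each of the 20 groups held 2 wild-type or 3 Nrf2 -/- libraries, 50 libraries in all, with 32.3 to 54.7 M (megareads) counted per library. The labels do not say whether the libraries of a group came from separate cultures or animals, so p-values here reflect library-to-library spread only, and part of that may be technical. Thapsigargin blocks the calcium pump of the endoplasmic reticulum and provokes the stress response in which the kinase Perk phosphorylates eIF2 alpha and translation of the transcription factor ATF4 rises. Cytosolic synthetase genes are known targets of ATF4. Wars, the cytosolic tryptophanyl enzyme, has long been known as an interferon-inducible gene, while IFN-gamma also induces enzymes that break tryptophan down.

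Nfe2l2 itself was read at 5.125 to 70.4 CPM (counts scaled to library size, per megaread) in the 20 wild-type libraries and below 1 CPM in 29 of the 30 Nrf2 -/- libraries. The remaining one, untreated 8 h replicate 3, stood at 7.62 CPM. In 3 Nrf2 -/- libraries at 8 h (replicate 2 of each treatment) the title and the genotype field of the labels disagreed, and the title was followed. Nfe2l2 was below 1 CPM in all 3, under the lowest wild-type library at 5.125 CPM, which matches the title. Summed counts of 11 oligodendrocyte lineage genes ran from 9226 to 10653 CPM in untreated cells at 8 h. Markers of astrocytes (6 genes) summed at 8 h to 27.2 to 31.6 CPM in untreated cells, 70.8 to 89.7 CPM with IFN-gamma and 63.2 to 69.99 CPM with thapsigargin, and their part in the results was not tested. Neuronal markers (6 genes, mostly Map2) summed at 8 h to 1584 to 1676 CPM in untreated cells, 1554 to 1654 CPM with IFN-gamma and 944 to 1040 CPM with thapsigargin, and their part was likewise not tested. Microglial markers summed to 1.04 to 7.62 CPM over all libraries, and 5 of those 6 genes had a median below 1 CPM. The tissue field of the labels reads whole brain, and the lineage markers were those of the stated cell type.

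Reference promoters show one difference between the gene sets that is independent of the counts. RefSeq (GRCm38.p6) gave a promoter, from 250 bases before to 50 after the annotated start, for 27 members, 13 cytosolic and 14 mitochondrial. The composite element bound by ATF4 with C/EBP proteins, TGATGNAAN searched on both strands, was present in 5 of the 13 cytosolic promoters (Aars, Gars, Iars, Tars and Yars) and in 0 of the 14 mitochondrial ones, against 3.95% of 32851 promoters of the same length. Its core TGATGCAA, which overlaps the longer form, was present in 4 of the 13 (all of those but Gars), in 0 of the 14, and in 0.895% of all promoters. The 5 windows are shown because all 5 genes rose with thapsigargin at 8 h, each 60 bases 5′ to 3′ on the strand of its gene, with the match in capitals. Rising was not particular to these genes, as 18 of the 20 cytosolic genes rose at that hour. Nars and Eprs, which are not among the 5, rose more than any of them. A promoter was available for only 13 of the 20, so a gene outside the 5 was not necessarily searched. The match of Yars lies on the strand of the gene, and the other matches lie on the opposite strand and appear as the reverse complement. The Aars promoter holds a further match to the longer form, also on the opposite strand, which lies outside the window and is not shown.

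Aars, chr8:111033704-111033763, plus strand: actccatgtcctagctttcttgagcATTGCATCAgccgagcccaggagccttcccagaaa
Gars, chr6:55037945-55038004, plus strand: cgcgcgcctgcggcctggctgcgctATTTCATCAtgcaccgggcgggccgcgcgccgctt
Iars, chr13:49682090-49682149, plus strand: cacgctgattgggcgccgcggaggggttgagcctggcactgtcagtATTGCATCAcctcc
Tars, chr15:11399640-11399699, minus strand: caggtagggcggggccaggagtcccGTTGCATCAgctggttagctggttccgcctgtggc
Yars, chr4:129189863-129189922, plus strand: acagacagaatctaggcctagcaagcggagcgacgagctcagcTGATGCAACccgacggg

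The core of the interferon-stimulated response element, searched in the same way, was present in 1 of 13 cytosolic promoters (Qars), 0 of 14 mitochondrial promoters and 3.44% of all promoters. Wars had no promoter among the 13, so it was not searched for either element. A match to letters is a description and was not tested as a site of binding.

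With 8 h of thapsigargin, most cytosolic synthetase genes rose several-fold, while the mitochondrial genes moved little and in both directions. By edgeR's quasi-likelihood test, averaged over the genotypes, 18 of 20 cytosolic genes rose, 1 fell and 1 was not called, at a Benjamini-Hochberg adjusted p below 0.05. Of the 16 mitochondrial genes 7 rose, 5 fell and 4 were not called. Across all tested genes 67.1% were called, 34.3% as higher and 32.9% as lower. The median log2 fold change was 1.75 for the cytosolic genes and 0.12 for the mitochondrial genes, against 0.01 for all tested genes. A called change over 2-fold was seen in 15 cytosolic genes and 1 mitochondrial gene. The share of all tested genes past 2-fold was not counted, so these 2 counts cannot be weighed against it. In these bulk libraries a change in the share of cells of one kind and a change in RNA per cell cannot be told apart. The summed oligodendrocyte lineage markers were at 3658 to 4368 CPM in the same thapsigargin libraries, and their part in the result was not tested.

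**Figure D1:**
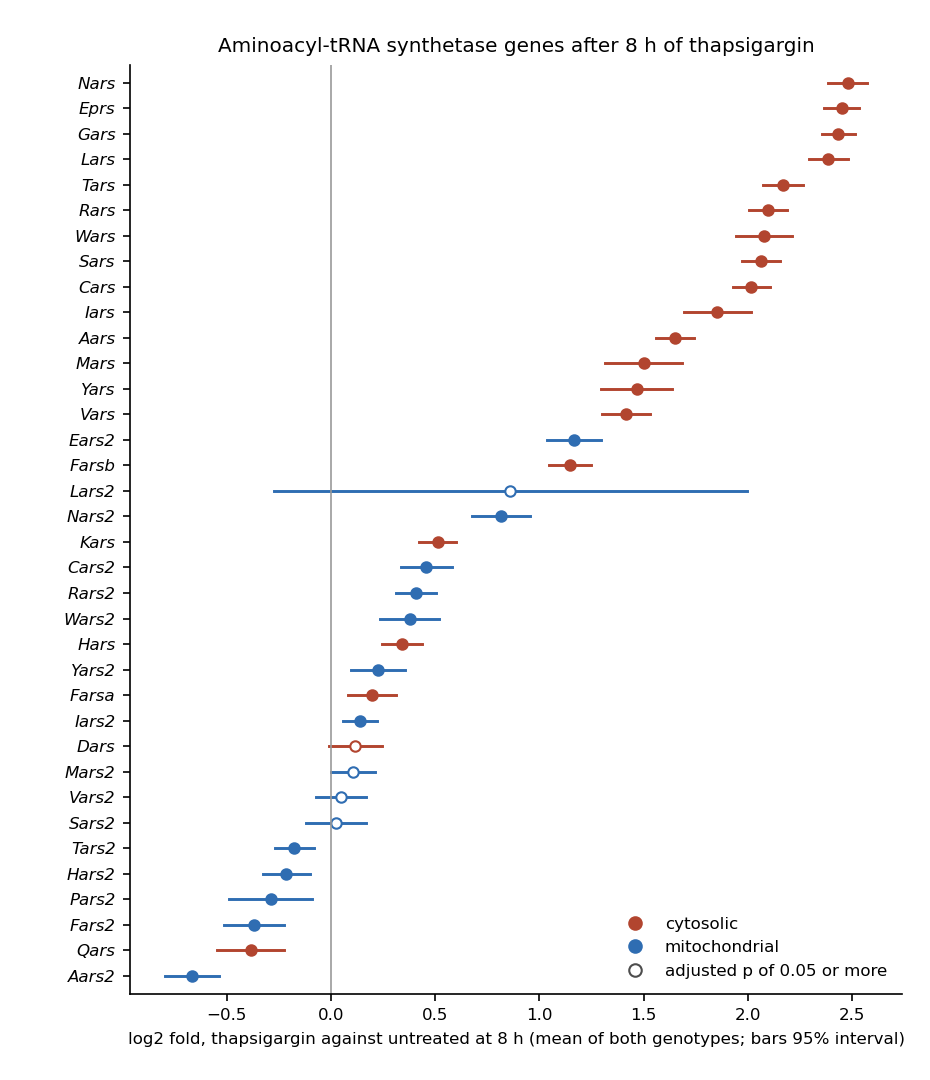
Log2 fold change of each of the 36 synthetase genes with thapsigargin against untreated cells at 8 h, averaged over wild type and Nrf2 -/-, with bars for the 95% confidence interval. Cytosolic genes reach 2.48 (Nars), and the mitochondrial genes apart from Lars2 lie between -0.67 (Aars2) and 1.17 (Ears2).

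The largest rises were of enzymes for asparagine, glutamate and proline, and glycine. Nars, the asparaginyl enzyme, read 184 and 183 CPM in the untreated wild-type libraries and 183, 180.0 and 174 CPM in the untreated Nrf2 -/- libraries, and with thapsigargin 1033 and 914 CPM in wild type and 976, 1081 and 1096 CPM in Nrf2 -/-. Its log2 fold change was 2.48 ± 0.05 (SE), a 5.58-fold rise (edgeR adjusted p = 3.40e-35). No treated library came near an untreated one, and the genotypes interleaved among the treated libraries.

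Eprs, the glutamyl-prolyl enzyme, read 335 and 347 CPM in untreated wild type, 338, 339 and 316 CPM in untreated Nrf2 -/-, and with thapsigargin 1892 and 1817 CPM in wild type and 1792, 1810 and 1840 CPM in Nrf2 -/-. It rose 5.46-fold (log2 2.45 ± 0.04 SE, edgeR adjusted p = 1.25e-36). The 5 treated libraries lay within a narrow band, all far above the untreated ones. Gars, the glycyl enzyme of both compartments, read 184 and 189 CPM in untreated wild type, 180.3, 183 and 172 CPM in untreated Nrf2 -/-, and with thapsigargin 998 and 927 CPM in wild type and 973, 989 and 1069 CPM in Nrf2 -/-. Its rise was 5.41-fold (log2 2.43 ± 0.04 SE, edgeR adjusted p = 3.44e-37), again without overlap. One transcript, Gars-201, held nearly all of the estimated Gars counts in every condition.

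Enzymes for leucine, threonine and arginine followed. Lars, the leucyl enzyme, read 131 and 130.3 CPM in untreated wild type, 126, 127 and 118 CPM in untreated Nrf2 -/-, and with thapsigargin 688 and 645 CPM in wild type and 638, 681 and 672 CPM in Nrf2 -/-. It rose 5.23-fold (log2 2.39 ± 0.05 SE, edgeR adjusted p = 1.15e-34) and the groups did not overlap. Tars, the threonyl enzyme, read 106 and 107 CPM in untreated wild type, 104, 99.9 and 89.4 CPM in untreated Nrf2 -/-, and with thapsigargin 487 and 400.5 CPM in wild type and 465, 486 and 474 CPM in Nrf2 -/-. It rose 4.50-fold (log2 2.17 ± 0.05 SE, edgeR adjusted p = 1.065e-32), and the lowest treated library, wild-type replicate 2, was still far above every untreated one. Rars, the arginyl enzyme, read 97.99 and 92.9 CPM in untreated wild type, 89.9, 95.6 and 80.95 CPM in untreated Nrf2 -/-, and with thapsigargin 401 and 347 CPM in wild type and 402, 419.6 and 425 CPM in Nrf2 -/-. It rose 4.28-fold (log2 2.10 ± 0.04 SE, edgeR adjusted p = 4.485e-33), with wild-type replicate 2 again the lowest treated library.

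Wars, the tryptophanyl enzyme, also rose with thapsigargin. It read 92.3 and 96.05 CPM in untreated wild type, 88.0, 94.2 and 89.0 CPM in untreated Nrf2 -/-, and with thapsigargin 412 and 356 CPM in wild type and 386, 391 and 406 CPM in Nrf2 -/-. Its rise was 4.22-fold (log2 2.08 ± 0.07 SE, edgeR adjusted p = 4.525e-27), with no overlap. Sars, the seryl enzyme, read 149.9 and 153 CPM in untreated wild type, 148, 145 and 138 CPM in untreated Nrf2 -/-, and with thapsigargin 655 and 556 CPM in wild type and 623, 642 and 620.0 CPM in Nrf2 -/-. It rose 4.18-fold (log2 2.065 ± 0.05 SE, edgeR adjusted p = 1.03e-32), and its treated libraries were likewise clear of the untreated ones.

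The other cytosolic genes that rose covered a wide range. On the log2 scale Cars, the cysteinyl enzyme, rose by 2.02, Iars (isoleucyl) by 1.85, Aars (alanyl) by 1.65, Mars (methionyl) by 1.5, Yars (tyrosyl) by 1.47, Vars (valyl) by 1.42 and Farsb by 1.15. Kars (lysyl), Hars (histidyl) and Farsa rose by only 0.51, 0.34 and 0.20, so the 2 subunits of the phenylalanyl enzyme differed in the size of their rise, a difference that was not tested. Hars overlaps Hars2 on the opposite strand, and the strand setting of the counting is not given in the sources used here, so reads from those 2 genes may not be fully separated.

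Dars and Qars were the exceptions among the cytosolic enzymes. Dars, the aspartyl enzyme, read 160.3 and 158 CPM in untreated wild type, 165, 146.5 and 136 CPM in untreated Nrf2 -/-, and with thapsigargin 174 and 163 CPM in wild type and 154, 169 and 173 CPM in Nrf2 -/-. The log2 difference was 0.12 ± 0.06 (SE), with a 95% confidence interval from -0.01 to 0.24 (edgeR adjusted p = 0.0998), and the groups overlapped. Qars, the glutaminyl enzyme, read 60.3 and 59.9 CPM in untreated wild type, 58.8, 52.9 and 49.3 CPM in untreated Nrf2 -/-, and with thapsigargin 50.95 and 41.1 CPM in wild type and 42.8, 40.4 and 40 CPM in Nrf2 -/-. It fell by 0.39 on the log2 scale (± 0.08 SE, 95% interval -0.55 to -0.23, edgeR adjusted p = 4.59e-05), although the highest treated library, wild-type replicate 1, lay above the lowest untreated one. For 17 of the 20 cytosolic genes every thapsigargin library lay above every untreated library, and for 3 the groups overlapped. The share of all tested genes whose libraries separated in this way was not counted, so the 17 cannot be weighed against it.

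Among the mitochondrial enzymes that were called, Ears2 and Nars2 rose most. Ears2, the glutamyl enzyme of the matrix, read 17.8 and 17.8 CPM in untreated wild type, 18.8, 17.25 and 17.8 CPM in untreated Nrf2 -/-, and with thapsigargin 39.98 and 41.9 CPM in wild type and 39.6, 38.3 and 39.9 CPM in Nrf2 -/-. It rose 2.24-fold (log2 1.17 ± 0.06 SE, edgeR adjusted p = 2.015e-19), the only mitochondrial member past 2-fold, and the groups did not overlap. Nars2, the asparaginyl enzyme, read 27.15 and 25.2 CPM in untreated wild type, 27.3, 24.0 and 24.7 CPM in untreated Nrf2 -/-, and with thapsigargin 46.7 and 41 CPM in wild type and 45.7, 45.7 and 49.05 CPM in Nrf2 -/-. It rose 1.76-fold (log2 0.82 ± 0.07 SE, edgeR adjusted p = 1.14e-13), and all treated libraries lay above the untreated ones.

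Aars2 moved the other way. This alanyl enzyme read 28.55 and 28.5 CPM in untreated wild type, 26.2, 27.6 and 27.8 CPM in untreated Nrf2 -/-, and with thapsigargin 16.97 and 15.8 CPM in wild type and 18.7, 18.5 and 19.1 CPM in Nrf2 -/-. It fell by 0.67 on the log2 scale (± 0.06 SE, edgeR adjusted p = 3.93e-12), with every treated library below every untreated one. Cars2, the cysteinyl enzyme, read 19.96 and 20.3 CPM in untreated wild type, 19.98, 20.4 and 21.8 CPM in untreated Nrf2 -/-, and with thapsigargin 27.2 and 31.3 CPM in wild type and 28.9, 25.4 and 26.4 CPM in Nrf2 -/-. It rose by 0.46 on the log2 scale (± 0.06 SE, edgeR adjusted p = 1.26e-08), a smaller step, still without overlap.

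The other mitochondrial genes that were called changed by less. Rars2, Wars2, Yars2 and Iars2 rose by 0.41, 0.38, 0.22 and 0.14 on the log2 scale. Fars2 fell by 0.37, Pars2 by 0.29, Hars2 by 0.21 and Tars2 by 0.18 on the log2 scale. Mars2 (0.11), Vars2 (0.05), Sars2 (0.02) and Lars2 (0.86 ± 0.56 SE) were not called. Over the 16 mitochondrial genes the thapsigargin libraries all lay above the untreated ones for 6, all below for 4, and overlapped for 6. Here too the share of all tested genes that separated was not counted, so these counts are a description only. With total counts as the scale Farsa, Yars2 and Iars2 were no longer called, Iars2 was also lost with no filter on low counts, and Pars2 was lost without wild-type thapsigargin replicate 2 (edgeR adjusted p = 0.052).

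Lars2, the mitochondrial leucyl enzyme, has to be read apart from the rest. Its level ran from 13.8 to 236 CPM with a within-group SD of 0.867 on the log2 scale, against 0.048 to 0.154 for the other 35 members. The estimated transcript counts for Lars2 were 0.624 M to 6.73 M per library, a median of 1947 times its gene counts, where the ratio for the other members was 0.986 to 1.18. The cause was not tested, and without Lars2 the median of the mitochondrial genes at 8 h was 0.11.

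**Figure D2:**
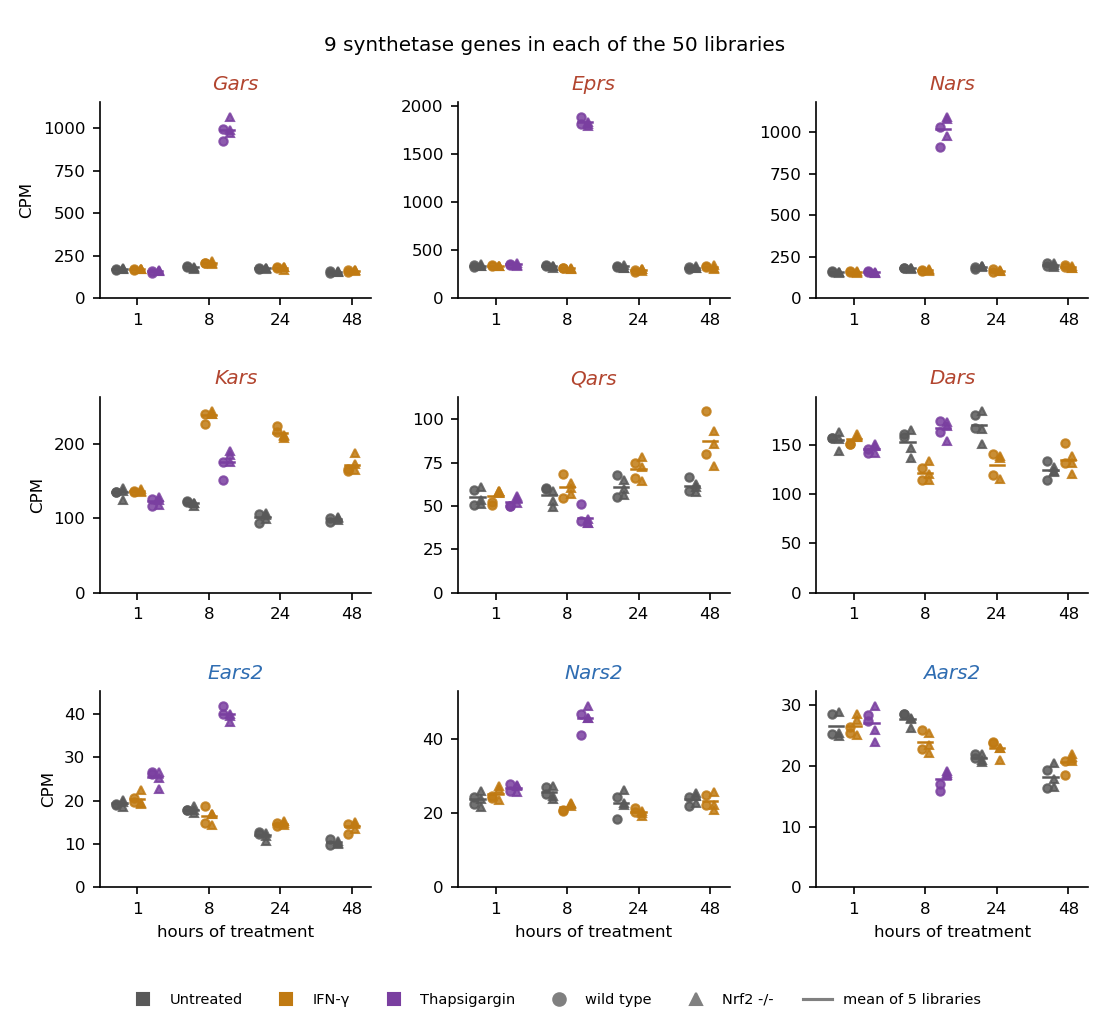
CPM in each of the 50 libraries for 6 cytosolic genes (Gars, Eprs, Nars, Kars, Qars, Dars) and 3 mitochondrial genes (Ears2, Nars2, Aars2), by treatment and hour, with circles for wild type, triangles for Nrf2 -/- and a line at the mean of 5 libraries. Gars, Eprs and Nars are far higher in the thapsigargin libraries at 8 h than in any other libraries, Kars is high with IFN-gamma from 8 h on, and Aars2 is lower in the thapsigargin libraries at 8 h.

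Pairing the enzymes by amino acid puts the 2 compartments side by side in the same libraries. There were 17 pairs, in which Eprs and Fars2 each occur 2 times, and in 17 of them the cytosolic gene had the higher fold change. The difference in log2 fold change ran from 0.556 (Hars against Hars2) to 2.74 (Eprs against Pars2), with a median of 1.56. In 16 of 17 pairs the per-library ratio of cytosolic to mitochondrial gene was higher in every thapsigargin library than in every untreated one, and the exception was Lars against Lars2. The share of other gene pairs that separated in this way was not counted, so the 16 are a description only. The log2 ratio of Aars to Aars2 went from between 3.15 and 3.19 to between 5.40 and 5.63. That of Tars to Tars2 went from between 0.884 and 1.1 to between 3.25 and 3.54. Even for Eprs against Ears2, whose mitochondrial partner rose most, it went from between 4.15 and 4.30 to between 5.44 and 5.56. These ratios cancel any scaling of a library as a whole.

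**Figure D3:**
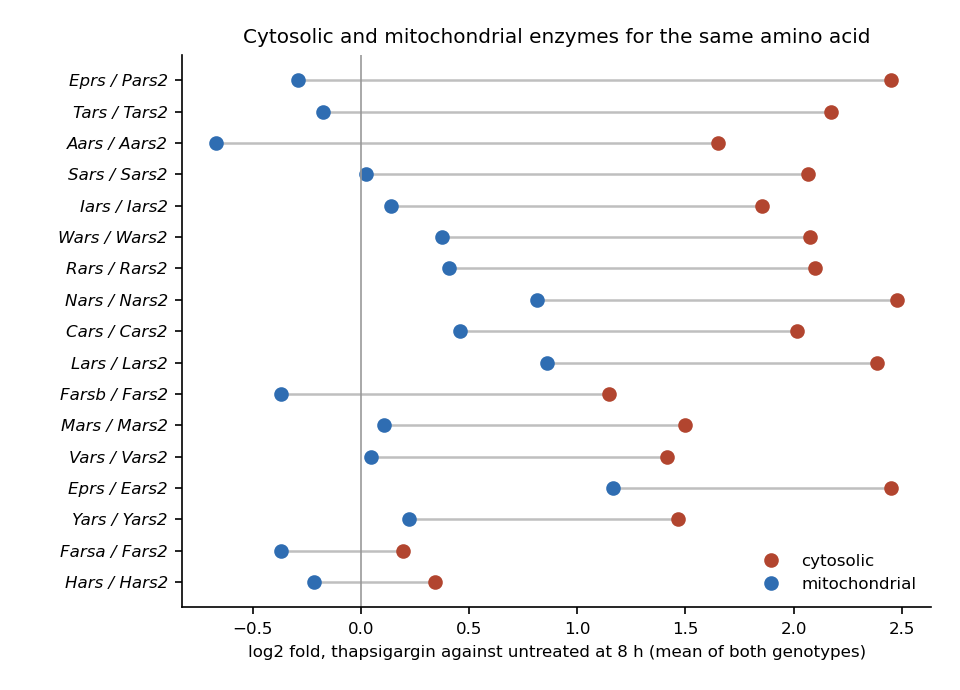
Log2 fold change with thapsigargin at 8 h for the cytosolic and the mitochondrial gene of each of 17 amino acid pairs, joined by a line. The cytosolic gene is the higher of the pair in all 17, by 0.556 to 2.74.

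Genes that act with the synthetases were counted from lists. The 3 scaffolds of the multisynthetase complex all rose, Aimp1 by 0.88, Aimp2 by 0.29 and Eef1e1 by 0.27 on the log2 scale. All 5 cytosolic elongation factors rose, from 0.16 for Eef1a1 to 0.44 for Eef2. Of 4 partners that finish mitochondrial tRNA charging, 0 rose and 2 fell, Mtfmt by 0.21 and Gatc by 0.21. Of 9 mitochondrial translation factors Tsfm rose by 0.95, Gfm1 fell by 0.31 and Tufm fell by 0.18, and the other 6 were not called. Of 4 editing and hydrolysis factors Prorsd1 rose by 0.67 and Dtd2 fell by 0.18.

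Of the 23 genes of the ATF4 pathway list, 20 rose and 1, Eif2ak2, fell by 1.35 on the log2 scale. Trib3, a pseudokinase induced by ATF4, went from between 0.079 and 0.505 CPM to between 385 and 486 CPM. Chac1, which degrades glutathione, went from between 1.503 and 2.075 CPM to between 181 and 216 CPM. Slc7a11, the cystine transporter, went from between 0.079 and 0.239 CPM to between 154 and 190.5 CPM. Atf4 itself, named here outside the rule for named genes, went from between 204.6 and 218 CPM to between 781 and 1026 CPM. The synthetase genes moved by less than the most responsive genes of this list, at far higher starting levels.

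At 1 h of thapsigargin there was little sign of this pattern. Of the 20 cytosolic genes 1 rose and 3 fell, and of the 16 mitochondrial genes 2 rose, where 20.4% of all genes were called (12.9% higher, 7.52% lower). Ears2 rose by 0.40 ± 0.06 (log2, SE, edgeR adjusted p = 5.86e-06) and Cars by 0.32 ± 0.04 (edgeR adjusted p = 2.46e-07). The calls on Cars2 (0.16, adjusted p = 0.0498), Kars (-0.14, adjusted p = 0.0202), Gars (-0.12, adjusted p = 0.0199) and Sars (-0.12, adjusted p = 0.04335) by edgeR were each lost under other settings.

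Wars stood apart with IFN-gamma. At 8, 24 and 48 h it was about an order of magnitude above untreated cells, and it was the only member past 2-fold at 8 and 48 h. At 8 h it read 92.3 and 96.05 CPM in untreated wild type and 88.0, 94.2 and 89.0 CPM in untreated Nrf2 -/-, and with IFN-gamma 941 and 884 CPM in wild type and 834, 799.8 and 887 CPM in Nrf2 -/-. The rise was 9.49-fold (log2 3.25 ± 0.07 SE, 95% interval 3.10 to 3.39, edgeR adjusted p = 2.27e-32). Every treated library was far above every untreated one.

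At 24 h Wars read 87.5 and 78.7 CPM in untreated wild type and 86.3, 91.05 and 83.0 CPM in untreated Nrf2 -/-, and with IFN-gamma 878 and 732.5 CPM in wild type and 634, 687 and 748 CPM in Nrf2 -/-. The rise was 8.77-fold (log2 3.13 ± 0.07 SE, edgeR adjusted p = 6.03e-32). At 48 h it read 77.3 and 76.2 CPM in untreated wild type and 80.2, 79.5 and 78.1 CPM in untreated Nrf2 -/-, and with IFN-gamma 635 and 873.5 CPM in wild type and 812, 866 and 736 CPM in Nrf2 -/-. That was a 9.99-fold rise (log2 3.32 ± 0.07 SE, edgeR adjusted p = 8.89e-33). The treated libraries spread more widely at 24 and 48 h than at 8 h, and none overlapped the untreated ones.

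At 1 h Wars was not called. It read 94.2 and 95.8 CPM in untreated wild type and 81.5, 97.7 and 90.7 CPM in untreated Nrf2 -/-, and with IFN-gamma 92.5 and 94.85 CPM in wild type and 91.97, 93.1 and 92.2 CPM in Nrf2 -/-. The log2 difference was 0.01 ± 0.06 (SE), with a 95% interval from -0.12 to 0.14, and the groups overlapped. The mitochondrial tryptophanyl gene, Wars2, was not called at any hour of IFN-gamma.

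The estimated transcript counts divide Wars between 2 start sites. Wars lies on the minus strand of chromosome 12, from 108860030 to 108894174 (GRCm38). Its transcript Wars-205 starts at 108893198, which is 976 bases downstream of the start of Wars-201 at 108894174, and Wars-204 starts at 108893197. The downstream start made up 0.501 to 8.66% of the gene's estimated counts over all untreated libraries and 2.04 to 5.30% with IFN-gamma at 1 h. With IFN-gamma its share was 78.2 to 81.6% at 8 h, 78.4 to 82.8% at 24 h and 83.3 to 86.7% at 48 h. With thapsigargin at 8 h it was 15.3 to 21.02%.

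Scaled to the library's estimated counts (estimated CPM), the downstream start went from between 0.484 and 6.29 in untreated cells at 8 h to between 646.5 and 760.1 with IFN-gamma. The 3 transcripts of the upstream start went from between 81.9 and 95.25 to between 155 and 189.8. With thapsigargin at 8 h the order was the other way round: the upstream start reached 278 to 345 estimated CPM and the downstream start 60.4 to 76.55. The larger part of the Wars estimate was thus downstream with IFN-gamma and upstream with thapsigargin. These are kallisto estimates that share reads between overlapping transcripts, given as a description with no test. No promoter of Wars, at either start, was analysed here.

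**Figure D4:**
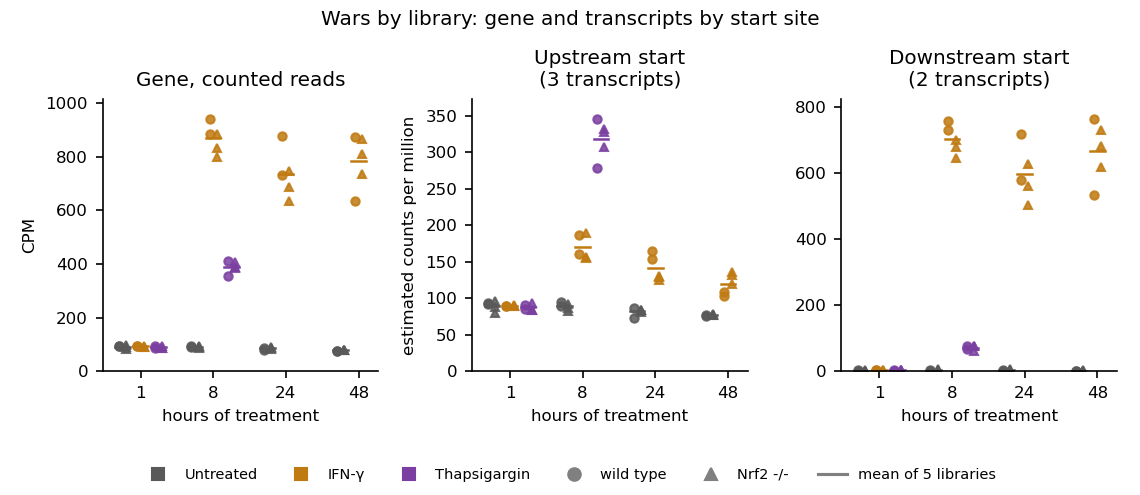
Wars in each library by treatment and hour: gene CPM in the left panel, and estimated CPM from the upstream and the downstream start in the middle and right panels, with a line at the mean of 5 libraries. The downstream start lies between 0.484 and 6.29 estimated CPM in untreated cells at 8 h and between 646.5 and 760.1 with IFN-gamma, and the upstream start is the higher of the 2 with thapsigargin.

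Kars, the lysyl enzyme of both compartments, was the second member to rise with IFN-gamma at 8 h. It read 122 and 124 CPM in untreated wild type and 117, 121 and 121 CPM in untreated Nrf2 -/-, and with IFN-gamma 228 and 241 CPM in wild type and 244, 241 and 239.8 CPM in Nrf2 -/-. The rise was 1.96-fold (log2 0.97 ± 0.04 SE, edgeR adjusted p = 1.25e-21), and the groups were far apart. It remained called at 24 h (1.081) and 48 h (0.79). Both of its main transcripts were higher at 8 h: Kars-201 went from between 85.6 and 89.7 to between 166 and 185 estimated CPM, and Kars-202 from between 26.2 and 31.4 to between 42.35 and 58.0.

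The other members changed by less than Kars with IFN-gamma, where called. At 1 h 0 of 36 were called by edgeR, where 3.64% of all genes were (1 member had an unadjusted p below 0.05, and DESeq2 called 0). At 8 h 8 members rose and 9 fell, where 39.8% of all genes were called, 19.4% as higher and 20.4% as lower. Besides Wars and Kars, those that rose were Yars (0.45), Lars (0.42), Rars (0.42), Tars (0.26), Gars (0.19) and Sars (0.12), all cytosolic. Cytosolic genes that fell were Dars (-0.34), Cars (-0.29) and Eprs (-0.10), and of the 16 mitochondrial genes 0 rose and 6 fell, Mars2 (-0.44), Sars2 (-0.34), Nars2 (-0.25), Aars2 (-0.22), Vars2 (-0.21) and Iars2 (-0.10). Scaling by total counts in place of TMM moved the median of all genes from -0.02 to -0.13 at 8 h, and apart from Wars the members then split into 5 that rose and 15 that fell, against 7 and 9, with Gars and Sars no longer called. The small changes of Eprs and Iars2 were lost in 11 and 13 of 21 settings (highest edgeR adjusted p 0.153 and 0.159), that of Sars in 9, and those of Aars2 and Vars2 in 1 each.

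At 24 h 12 members rose and 7 fell, where 55.9% of all genes were called (27.6% higher, 28.4% lower). After Wars and Kars the largest among the called genes were Rars (0.62), Vars (0.56), Cars (-0.46), Mars2 (-0.40) and Dars (-0.39), while Lars2 (-1.26 ± 0.56 SE) was not called. With total counts as the scale the median of all genes was 0.13 in place of 0.00, and the members other than Wars split into 17 that rose and 4 that fell, against 11 and 7. The small fall of Iars2 (-0.10) turned to 0.03 there.

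At 48 h 17 members rose and 2 fell, where 55.8% of all genes were called (27.3% higher, 28.5% lower). After Wars and Kars the largest rises among the called genes were those of Rars (0.61), Yars (0.57), Tars (0.52), Qars (0.51) and Ears2 (0.42). Iars, the isoleucyl enzyme, fell by 0.63 on the log2 scale (edgeR adjusted p = 5.75e-09), from 155 and 221 CPM in wild type and 164, 164 and 162 CPM in Nrf2 -/- to 126 and 112 CPM in wild type and 112, 103 and 107 CPM in Nrf2 -/-. Its untreated wild-type replicate 2 was the highest library, and the groups did not overlap. Iars2 fell by 0.25. Over the 3 later hours Rars, Lars, Tars, Kars and Wars were the members that rose each time.

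The genes set beside the members followed IFN-gamma differently. Irf1, an interferon-induced transcription factor, went from between 16.3 and 20.45 CPM to between 841.5 and 918 CPM at 8 h. Among genes of tryptophan breakdown, Ido1 rose at 8 h from between 0 and 0.051 CPM to between 0.429 and 0.564 CPM. Ido2 rose at 8 h from between 0.123 and 0.255 CPM to between 0.787 and 1.04 CPM. Both stayed near the floor of detection far below Wars. Of the 4 tested genes of that list, 3 rose at 8 h and 1 was not called, while at 24 and 48 h 3 rose and 1 fell. Tdo2 was lower with IFN-gamma at 48 h. Its mean there was 4.522 CPM in untreated wild type and 0.966 CPM with IFN-gamma. In Nrf2 -/- the means were 3.888 CPM untreated and 0.8391 CPM with IFN-gamma. Atf4 fell by 0.17 at 8 h (edgeR adjusted p = 0.0189). None of the 3 scaffolds and none of the 5 elongation factors were called at 8 h, and at 48 h Aimp1, Aimp2 and Eef1e1 rose by 0.23, 0.43 and 0.51. Lineage markers summed to less with IFN-gamma than in untreated cells at each of these hours. The sums were 6669 to 7756 against 9226 to 10653 CPM at 8 h, 7704 to 9993 against 19945 to 24517 CPM at 24 h, and 17841 to 21793 against 36178 to 39448 CPM at 48 h, and their part in these results was not tested.

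**Figure D5:**
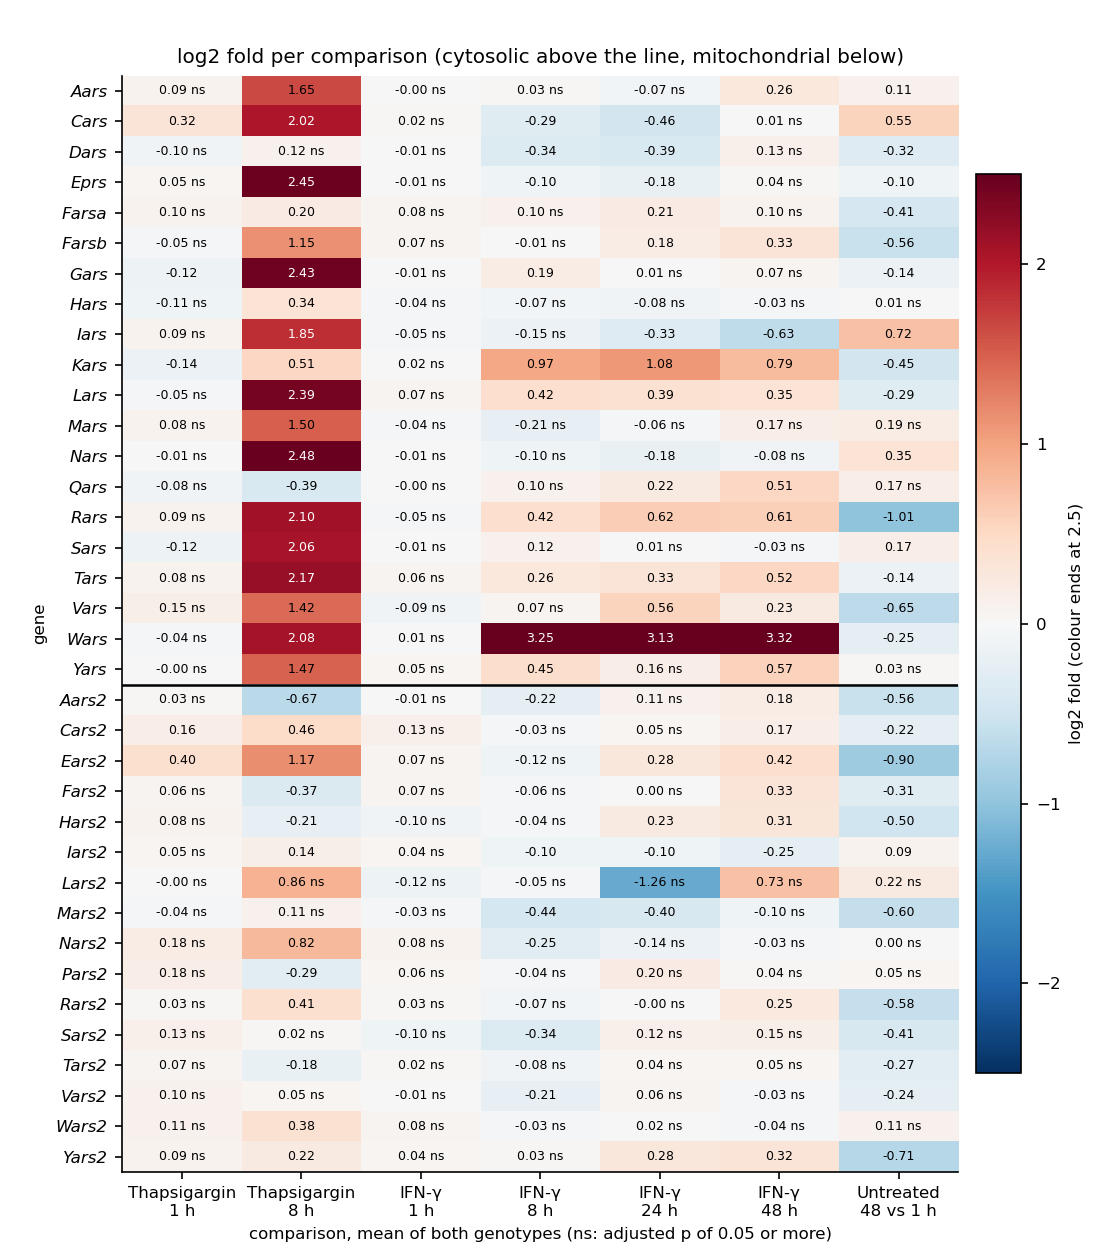
Log2 fold change of each member in each comparison, averaged over genotypes, as a colour scale, with cytosolic genes above mitochondrial genes, the value printed in each cell and ns on values that were not called. The thapsigargin 8 h column is high for most cytosolic genes, and Wars is high in the IFN-gamma columns from 8 h on.

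In untreated cells most synthetase genes fell during the 2 days of culture, while the summed lineage markers went from between 7419 and 8350 CPM at 1 h to between 36178 and 39448 CPM at 48 h. Over the same hours the astrocyte sum went from between 32.5 and 41.2 CPM to between 69.75 and 162.5 CPM and the neuronal sum from between 1370 and 1584 CPM to between 715.5 and 814 CPM, and the part of any of these was not tested. Of the 36 members 22 fell, 6 rose and 8 were not called from 1 to 48 h, where 68.1% of all genes were called (34.5% higher, 33.6% lower). Rars fell by 1.01 ± 0.04 on the log2 scale (SE, edgeR adjusted p = 1.16e-22), from 125 and 119.8 CPM in wild type and 126, 128 and 130.1 CPM in Nrf2 -/- to 64.3 and 59.7 CPM in wild type and 64.2, 61.2 and 61.3 CPM in Nrf2 -/-. Ears2 fell by 0.90 ± 0.07 (edgeR adjusted p = 2.91e-15), from 19.35 and 19.1 CPM in wild type and 19.8, 20.2 and 18.65 CPM in Nrf2 -/- to 9.89 and 11.2 CPM in wild type and 10.3, 9.95 and 10.7 CPM in Nrf2 -/-. The hours did not overlap for either gene.

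Yars2, the mitochondrial tyrosyl enzyme, fell by 0.71 ± 0.07 (edgeR adjusted p = 1.70e-12), from 19.2 and 20.3 CPM in wild type and 19.8, 18.3 and 17.7 CPM in Nrf2 -/- to 12.0 and 11.3 CPM in wild type and 11.7, 11.7 and 11.9 CPM in Nrf2 -/-. Iars went against them and rose by 0.72 ± 0.08 (edgeR adjusted p = 1.25e-10), from 105.0 and 109 CPM in wild type and 105, 107 and 103 CPM in Nrf2 -/- to the untreated 48 h levels given above. The other genes that rose were Cars (0.55), Nars (0.35), Sars (0.17), Aars (0.11) and Iars2 (0.09). With total counts as the scale the median of all genes was -0.20 in place of -0.01, 3 members rose and 24 fell, and Aars, Sars and Iars2 took the opposite sign.

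Per kilobase of annotated exon, the cytosolic genes were the more abundant set in the 20 untreated libraries. Their medians ran from 8.99 CPM per kb (Qars) to 55.9 CPM per kb (Gars), and those of the mitochondrial genes from 1.71 (Wars2) to 14.2 CPM per kb (Rars2). After Gars (range 48.6 to 60.6) came Hars (42.7, range 39.4 to 47.25), Nars (42.2, range 35.35 to 49.6) and Dars (35.8, range 26.2 to 42.2), where the ranges of Hars, Nars and Dars overlapped and that of Gars lay above Hars and overlapped Nars. These medians pool the 4 hours, over which several members changed. The length used is the union of all annotated exons, retained introns included, which understates genes with long minor transcripts.

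No synthetase gene was called between the genotypes. Between Nrf2 -/- and wild type, averaged over the hours, 0 of 36 members were called by edgeR in untreated cells, with IFN-gamma or with thapsigargin, where 0.0243%, 0.0547% and 0.51% of all genes were. At an unadjusted p below 0.05 there were 1, 0 and 3 members, and DESeq2 called 0. Apart from Lars2, differences lay between -0.06 (Qars) and 0.09 (Mars2) on the log2 scale in untreated cells and between -0.15 (Iars) and 0.11 (Rars) with thapsigargin.

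The responses were also compared between genotypes as a difference of differences, and 0% of all genes were called for any agent and hour. For thapsigargin at 8 h the differences apart from Lars2 ran from -0.33 (Iars, 95% interval -0.64 to -0.02) to 0.33 (Wars2, 0.05 to 0.62). Rars (0.25 ± 0.09 SE) had the smallest edgeR adjusted p, 0.583, and 7 members had an unadjusted p below 0.05. The 95% interval stayed within 1.5-fold for 33 of the 36 members. Iars read 114, 116 and 151 CPM in the 3 untreated Nrf2 -/- libraries at 8 h, and without replicate 3, the library in which Nfe2l2 was read, its difference was -0.18 (-0.48 to 0.11). Without wild-type thapsigargin replicate 1, which leaves a single wild-type library there, Rars (0.36, adjusted p = 0.0438) and Tars (0.37, adjusted p = 0.0425) were called by edgeR, where 1.18% of all genes tested were. Without wild-type IFN-gamma 48 h replicate 2, Lars (0.29, adjusted p = 0.0402) was called by edgeR for IFN-gamma at 48 h, where 4.51% of all genes tested were. For Wars with IFN-gamma the difference was -0.06 (95% interval -0.32 to 0.20) at 8 h, -0.29 (-0.55 to -0.03, edgeR adjusted p = 0.601) at 24 h and 0.05 (-0.21 to 0.31) at 48 h.

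Taken one genotype at a time, thapsigargin at 8 h raised 17 cytosolic genes and lowered 1 in wild type, where 55.5% of all genes were called (28.4% higher, 27.1% lower), and raised 18 and lowered 1 in Nrf2 -/-, where 60% were (30.4% higher, 29.6% lower). Of the mitochondrial genes 4 rose and 3 fell in wild type, and 7 rose and 5 fell in Nrf2 -/-. With the 3 libraries of conflicting genotype counted as wild type, 11 mitochondrial genes were called there in wild type. Nfe2l2 was below 1 CPM in those 3, as in Nrf2 -/- cells. The Wars log2 fold change with IFN-gamma was 3.28 in wild type and 3.22 in Nrf2 -/- at 8 h, 3.28 and 2.99 at 24 h, and 3.297 and 3.34 at 48 h.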

How the data were processed

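RNA was sequenced from 50 libraries in 20 groups. Gene read counts are as the authors deposited them, made with STAR and featureCounts per the submitters' processing notes; estimated counts per transcript are from kallisto, also deposited by the authors. Their versions, and the genome build, annotation and strand setting of the counting, were not stated in what was used here. Symbols and positions were matched by gene identifier to GENCODE M21 (GRCm38).

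Counts were fitted in R 4.3.3 with edgeR 4.0.16: TMM scaling, filterByExpr (minimum count 10), 1 mean per group, a robust quasi-likelihood fit and Benjamini-Hochberg adjustment over 16460 genes, called below 0.05. A change averages the genotypes unless stated. CPM uses TMM-scaled totals, and intervals are 95%. The fit was also run on simulated counts drawn independently for each library, which cannot show how it behaves if libraries share a culture. Alternatives included DESeq2 1.42.0. Replicate numbers follow deposit order. Library pairs within groups differed beyond sampling noise (chi-square per degree of freedom 5.17 to 344.4, genes of 20 or more counts). Members and lists were chosen with earlier results of these data known. Genes are named as follows: all members may be named, with values per library for Wars with IFN-gamma, the 8 cytosolic and 4 mitochondrial members changed most by thapsigargin at 8 h, the cytosolic exceptions, and the 4 changed most from 1 to 48 h untreated.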

Additional observations from a re-analysis of the deposited data

How the results depend on the processing

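With thapsigargin at 8 h the cytosolic count of called genes stayed at 18 to 19 and the mitochondrial count at 10 to 12 over 11 alternatives, and at 19 to 20 and 11 to 13 with 1 library left out, where a single remaining wild-type library is assumed to vary like the other groups. Scaling by total counts gave medians of 1.65 and 0.02. Wars with IFN-gamma stayed at 3.14 to 3.28 at 8 h, 3.13 to 3.26 at 24 h and 3.304 to 3.364 at 48 h over those alternatives. At 1 h it was 0.01, and it took the opposite sign with total counts (-0.0148) and with kallisto estimates (-0.0065), and ran from -0.0239 to 0.0408 with 1 library left out.

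The 1 h thapsigargin counts were the least stable. The cytosolic count, 4, was 1 with total counts, 2 without a filter, 2 with kallisto estimates and 8 with the hours of the contrast alone. It was 1 to 5 with 1 library left out: 1 without wild-type thapsigargin replicate 1 or untreated replicate 2, and 2 without wild-type untreated replicate 1 or Nrf2 -/- thapsigargin replicate 3. The mitochondrial count, 2, was 1 with RLE scaling, total counts, no filter, kallisto estimates, DESeq2, and the 3 libraries of conflicting genotype left out or taken as wild type, and 1 to 2 with 1 library left out. Counted as wild type, which their Nfe2l2 levels do not match, those 3 libraries gave 11 mitochondrial calls in wild type at 8 h, against 7. No difference between genotypes in the response was called under the 11 alternatives, and 0 to 2 members with 1 library left out. The causes were not tested.

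Of 117 named fold changes, 92 kept their direction and call under every alternative run. Those that turned over, all with total counts, were Iars2 with IFN-gamma at 24 h (0.0304) and, from 1 to 48 h untreated, Aars (-0.0905), Sars (-0.0268) and Iars2 (-0.1081). No paired analysis was possible because the labels give every library its own number and the groups share none.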
